A study of Mus musculus with 4 samples.

Results

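The genes described here encode the enzymes and the chaperone that modify, fold and crosslink collagen, measured in mouse embryonic fibroblasts with and without podoplanin. They were chosen by name and comprised 10 genes: P4ha1, P4ha2 and P4hb for prolyl hydroxylation, Plod1, Plod2 and Plod3 for lysyl hydroxylation, Serpinh1 as the chaperone, and Lox, Loxl1 and Loxl2 for crosslinking. Of these, 9 had a probe set of their own among the 19751 genes tested. The probe set that reads Loxl2 is also listed under the predicted gene Gm21451 and was kept apart.

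The tested cells were Pdpn-/- fibroblasts (Pdpn KO), and the cells they were set against were wild type (WT), both given as strain C57BL6/J. There were 2 arrays per genotype, which the labels describe as biological replicates. Embryos were taken between embryonic day 9.5 and 13.5. Cells of both genotypes were grown out for 7 to 10 days in medium with 10% fetal calf serum and depleted of CD31-positive and CD45-positive cells, without further treatment. The sources used here do not say how the Pdpn allele was made, nor from how many embryos a culture was started. The p-values therefore cover the spread among the 4 arrays, which may be partly technical.

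Collagen chains are modified in the endoplasmic reticulum before they fold. Prolyl 4-hydroxylases stabilise the triple helix, lysyl hydroxylases prepare lysines for sugar attachment and for crosslinks, and the chaperone HSP47, the product of Serpinh1, binds the folded helix on its way out of the compartment. After secretion, copper-dependent lysyl oxidases oxidise lysine and hydroxylysine residues, which then form the covalent bonds that give fibrils their strength. Fibroblasts are the main producers of fibrillar collagen, and several of these enzymes, P4ha1, P4ha2, Plod2 and Lox among them, are known to be induced by low oxygen.

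The promoter windows of the 3 prolyl 4-hydroxylase genes are shown because these subunits are compared below. A further reason is that the induction of P4ha1 and P4ha2 by low oxygen runs through a short DNA element. Each window runs from 250 bases before to 50 bases after the transcription start, taken from RefSeq on build GRCm38.p6 and written 5′ to 3′ in the direction of transcription. Capitals mark ACGTG, 1 form of the core of the hypoxia response element, or its reverse complement CACGT. The form GCGTG was not searched for, so the counts below cover ACGTG only. P4ha1 lies at chr10:59323046-59323345 on the plus strand, P4ha2 at chr11:54100674-54100973 on the plus strand and P4hb at chr11:120573204-120573503 on the minus strand.
P4ha1: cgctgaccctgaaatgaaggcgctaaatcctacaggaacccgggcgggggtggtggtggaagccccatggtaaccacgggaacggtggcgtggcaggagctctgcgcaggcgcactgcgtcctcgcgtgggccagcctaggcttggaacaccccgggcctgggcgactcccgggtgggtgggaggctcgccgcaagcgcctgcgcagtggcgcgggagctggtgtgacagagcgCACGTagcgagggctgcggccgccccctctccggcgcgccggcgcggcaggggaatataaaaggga
P4ha2: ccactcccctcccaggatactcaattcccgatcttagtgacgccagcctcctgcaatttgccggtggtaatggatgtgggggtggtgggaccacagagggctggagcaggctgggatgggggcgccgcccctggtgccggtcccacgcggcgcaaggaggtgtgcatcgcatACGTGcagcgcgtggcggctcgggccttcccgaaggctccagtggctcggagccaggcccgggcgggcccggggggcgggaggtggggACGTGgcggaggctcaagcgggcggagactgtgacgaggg
P4hb: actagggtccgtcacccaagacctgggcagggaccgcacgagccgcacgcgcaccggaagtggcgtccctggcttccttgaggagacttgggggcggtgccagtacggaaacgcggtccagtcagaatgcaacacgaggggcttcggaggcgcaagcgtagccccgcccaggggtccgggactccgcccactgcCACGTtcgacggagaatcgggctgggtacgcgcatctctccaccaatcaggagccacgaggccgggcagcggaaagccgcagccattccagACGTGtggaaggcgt
ACGTG, on either strand, stood at 1 position in the P4ha1 window and at 2 positions each in those of P4ha2 and P4hb. Of the 10 genes, 6 matched a window in the table. ACGTG was found on either strand in 5 of the 6, which are P4ha1, P4ha2, P4hb, Plod3 and Serpinh1, and not in that of Plod1. Of all 32851 windows of this length, 19.6% held it. The 6 windows also had a GC content between 53.3% and 70.3%, against a median of 52.7% over all windows. The part of base composition in the match was not tested. The match is a description of the sequence and does not show that a factor binds there.

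**Figure D1:**
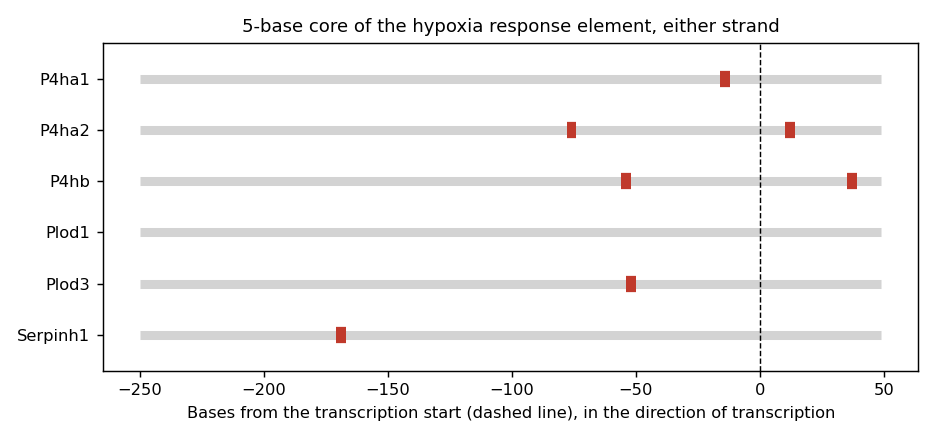
Positions of ACGTG or its reverse complement (red) in the promoter windows of 6 genes (grey bars), in bases from the transcription start on the horizontal axis. 5 of the 6 windows hold ACGTG on either strand, and P4ha2 and P4hb hold it at 2 positions each. The form GCGTG is not marked.

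Pdpn itself read 179 and 201 on the Pdpn KO arrays, against 4486 and 3106 on the WT arrays, in units of RMA intensity, a background-corrected and quantile-normalised brightness per probe set on a linear scale. Its log2 difference was -4.30 ± 0.19 (SE, n = 2 arrays per genotype; limma adjusted p = 0.00501). The labels give every culture as female, but 3 of the 4 arrays carried Y-linked transcripts. Eif2s3y, on the Y chromosome, read 1673 and 35.1 in Pdpn KO replicates 1 and 2, against 1534 and 1474 in WT, and Kdm5d and Uty were likewise low in Pdpn KO replicate 2. Xist, the RNA of the inactive X chromosome, read 48.9 and 1831 in Pdpn KO, against 48.6 and 57.4 in WT. Values without Pdpn KO replicate 2, the array that stood apart in this way, are therefore given below for several of the genes. Vim, vimentin of mesenchymal cells, read 17537 and 17684 in Pdpn KO, against 17995 and 18278 in WT, a high reading in all 4 arrays.

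The 9 enzyme and chaperone genes with a probe set of their own had similar transcript levels in fibroblasts with and without podoplanin. The probe set shared by Loxl2 and Gm21451 had a larger log2 difference, -0.31, and is described further below. In limma, 0 of the 9 genes had an adjusted p under 0.05 and 0 had an unadjusted p under 0.05, where 0.0101% and 2.01% of all genes did. The largest difference among them was 1.15-fold, for Plod1. Every 95% interval included 0, and the intervals ran from -0.48 to 0.47 on the log2 scale. Each therefore lay within a 1.5-fold difference either way, as did 90.3% of the intervals over all genes and 95.3% of those over the brightest 10%. With 1 array left out the widest bounds were -0.645 and 0.635. The median log2 difference of the 9 was 0.05, against 0.00 over all genes tested and 0.02 over the brightest 10%. Of the 9 means, 6 were higher and 3 lower in Pdpn KO, of which P4ha1 and Lox, both near 0, changed sign under another scaling. Without WT replicate 2 the median of the 9 was 0.15, and it was -0.04 without Pdpn KO replicate 2. RMA compresses small differences, and 4 arrays split 2 against 2 in only 3 ways, so an exact permutation test of 1 gene cannot give a two-sided p below 0.333.

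**Figure D2:**
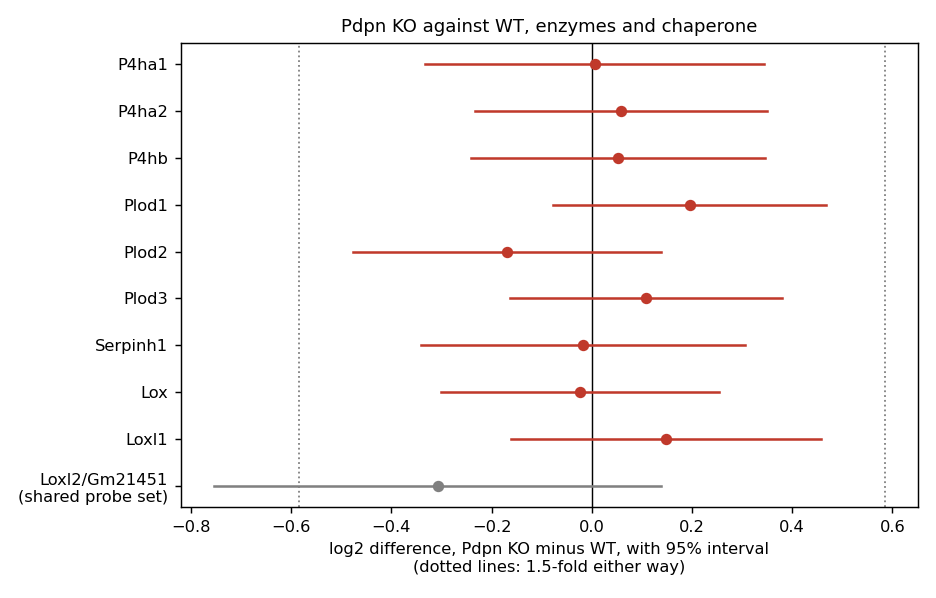
Log2 difference in intensity, Pdpn KO minus WT (horizontal axis), of the 9 genes with their own probe set (red) and of the probe set shared by Loxl2 and Gm21451 (grey). Points are limma estimates from 2 arrays per genotype, bars are 95% intervals and dotted lines mark 1.5-fold either way. All 10 intervals cross 0. The 9 red ones stay between the dotted lines, and the grey one passes the lower line.

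The prolyl 4-hydroxylase subunits had log2 differences of 0.06 or less. P4ha1, on chromosome 10 in band B4, encodes the main catalytic alpha subunit and read 3164 and 3380 in Pdpn KO, against 2929 and 3621 in WT. Both knockout values lay between the wild-type values, and the log2 difference was 0.01 ± 0.14 (SE, 95% interval -0.33 to 0.34; limma adjusted p = 1.00). P4ha2 (chromosome 11, band A5-B1), the alternative alpha subunit, read 978 and 964 in Pdpn KO, against 872 and 998 in WT. Again the knockout values fell inside the wild-type range, with a difference of 0.06 ± 0.12. P4hb (chromosome 11, band D-E), the beta subunit, is protein disulphide isomerase, which also works alone as a folding enzyme for many secreted proteins. It read 7299 and 8261 in Pdpn KO, against 7242 and 7739 in WT, a difference of 0.05 ± 0.12. The genotypes overlapped for each of the 3 subunits, and the WT arrays lay farther apart than the genotype means.

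Among the lysyl hydroxylases, 2 of 3 had values that did not overlap between genotypes. Plod1 (chromosome 4, band E2) hydroxylates lysines within the helix, and its loss in humans causes a kyphoscoliotic form of Ehlers-Danlos syndrome. It read 3459 and 3368 in Pdpn KO, against 2868 and 3100 in WT. Both knockout values lay above both wild-type values, by a log2 difference of 0.20 ± 0.11 (SE, 95% interval -0.08 to 0.47), which did not pass (limma adjusted p = 1.00). Plod3 (chromosome 5, band G2), which also attaches sugars to hydroxylysine, read 5141 and 5256 in Pdpn KO, against 4632 and 5023 in WT, a difference of 0.11 ± 0.11. Values without overlap were seen for 24.4% of all genes, with both knockout arrays above both wild-type arrays for 14.6% and below them for 9.74%, so 2 of the 9 genes is close to that share. Of the 1976 genes in the brightest 10%, both knockout arrays lay above both wild-type arrays for 454 and below them for 182. Plod2 (chromosome 9, band E3.3) hydroxylates lysines of the telopeptides, the ends where fibrils are crosslinked. It read 2749 and 2403 in Pdpn KO, against 2746 and 3040 in WT, with a difference of -0.17 ± 0.13 (95% interval -0.48 to 0.14; limma adjusted p = 1.00). Pdpn KO replicate 1 and WT replicate 1 were nearly equal for Plod2, and the gap lay between the other two arrays. Without Pdpn KO replicate 2 its difference was -0.07 ± 0.18, while that of Plod1 was 0.21 ± 0.18.

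Plod1 lies on the same chromosome as Pdpn, which is in band E1. In the gene order of RefSeq, 62 protein-coding genes stand between the pair, of which 30 were measured. The mean in Pdpn KO was higher for 15 and lower for 15 of these, with a median log2 difference of -0.02. In limma, 0 of the 30 passed an adjusted p of 0.05, and 2 had an unadjusted p under 0.05 with higher and 5 with lower values, where 1.5% and 0.511% of all genes did. Both counts were above those shares, most of all for lower values. Whether the place of Plod1 near the altered gene bears on its value was not tested.

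Serpinh1, the collagen-specific chaperone on chromosome 7 in band E2, read 4730 and 5660 in Pdpn KO, against 5026 and 5458 in WT. The knockout arrays lay on either side of both wild-type arrays, so the genotypes overlapped fully. The log2 difference was -0.02 ± 0.13 (SE, 95% interval -0.34 to 0.31; limma adjusted p = 1.00), and it was -0.15 ± 0.18 without Pdpn KO replicate 2.

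Lox and Loxl1, the lysyl oxidases with a probe set of their own, were also close between genotypes. Lox (chromosome 18, band D1), the founding enzyme of the family, read 11811 and 12661 in Pdpn KO, against 11982 and 12890 in WT. The knockout and wild-type values interleaved, and the difference was -0.02 ± 0.12 (SE, 95% interval -0.30 to 0.25; limma adjusted p = 1.00). Loxl1 (chromosome 9, band B), an enzyme needed in mice for elastic fibre renewal, read 5004 and 5742 in Pdpn KO, against 4597 and 5090 in WT. Its values overlapped, since Pdpn KO replicate 1 lay below WT replicate 2, and the difference was 0.15 ± 0.13 (95% interval -0.16 to 0.46; limma adjusted p = 1.00). Without Pdpn KO replicate 2 it was 0.05 ± 0.18. The probe set listed for both Loxl2, which crosslinks collagen IV among other substrates, and Gm21451 read 2299 and 2918 in Pdpn KO, against 2905 and 3541 in WT. The signals of the pair cannot be separated on this probe set. Its difference of -0.31 ± 0.17 (95% interval -0.75 to 0.14) did not pass among the 3325 probe sets with several symbols or none (limma adjusted p = 1.00). This difference was larger in size than that of any of the 9 genes, and its interval passed the 1.5-fold limit on the lower side. Pdpn KO replicate 2, the array apart in sex-linked genes, lay between the wild-type arrays, while Pdpn KO replicate 1 lay below both. No fit without Pdpn KO replicate 2 was run for this probe set.

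**Figure D3:**
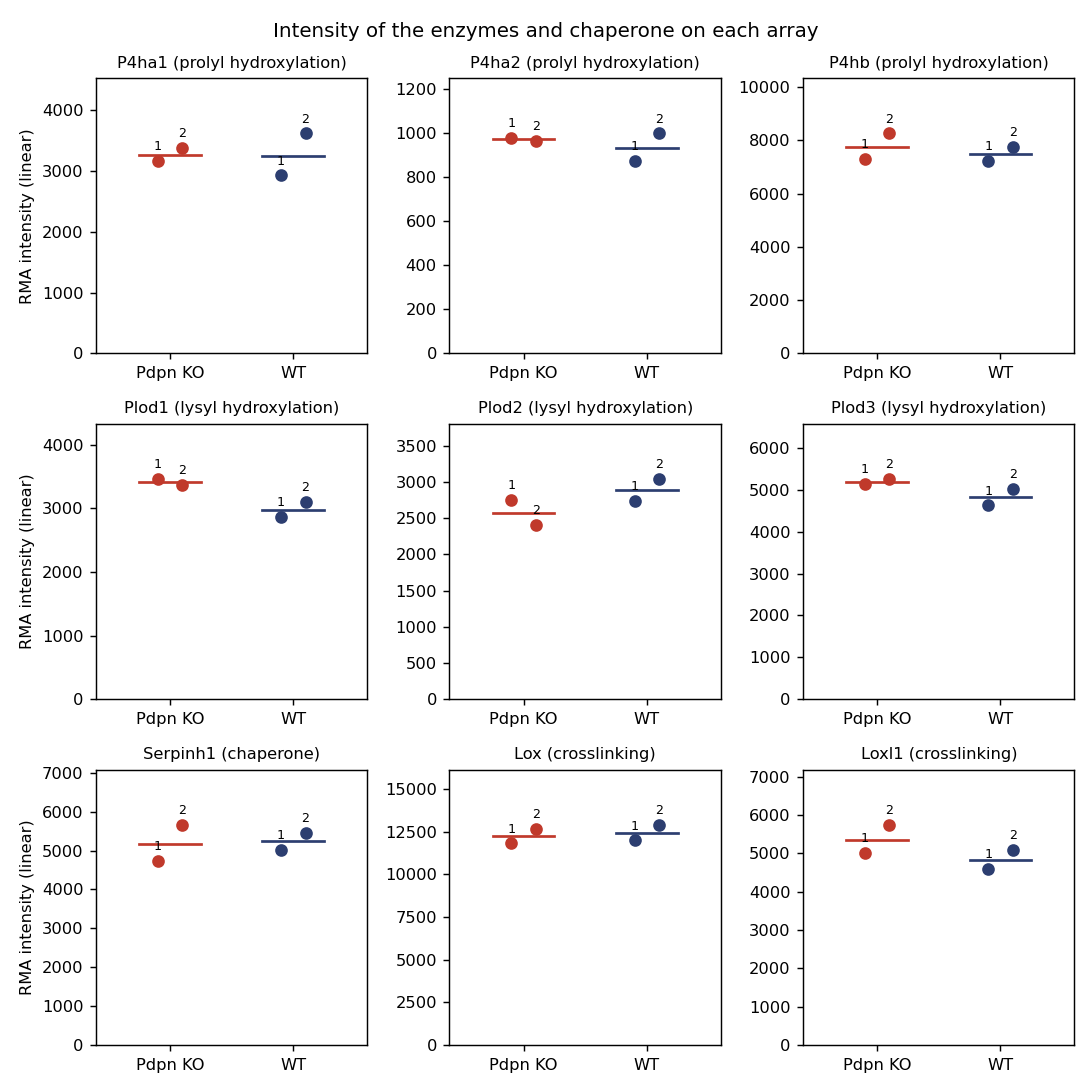
RMA intensity on a linear axis from 0 for each gene on each array, with Pdpn KO (red) left of WT (blue), replicate numbers above the points and a line at the geometric mean of 2 arrays. Only Plod1 and Plod3 have both Pdpn KO points above both WT points; each panel has its own scale, because probe sets differ in brightness for reasons other than transcript level.

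The median absolute log2 difference between genotypes was 0.06 for the 9 genes and 0.07 over all genes tested. Within genotypes, the median absolute difference between the 2 arrays was 0.10 in Pdpn KO and 0.12 in WT for the 9 genes, against 0.15 in both genotypes over all genes. For the brightest 10% of all genes it was 0.10 in Pdpn KO and 0.08 in WT, so the smaller gap is not particular to the 9 genes. The array numbered 2 was higher in both genotypes for 6 of the 9 genes (P4ha1, P4hb, Plod3, Serpinh1, Lox and Loxl1), and for 41.3% of all genes. Plod2 went opposite ways, with replicate 2 minus replicate 1 at -0.19 in Pdpn KO and 0.15 in WT. Whether a replicate number marks a shared day, litter or batch is not stated in the labels.

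Of 11 fibrillar collagen genes, 0 reached an adjusted p of 0.05 in limma and 0 had an unadjusted p under 0.05. Those shares over all genes were 0.0101% and 2.01%. The median log2 difference of the 11 collagens between genotypes was -0.05. Col1a1, which encodes the main chain of type I collagen, read 5799 and 8334 in Pdpn KO, against 5895 and 8938 in WT, a genotype difference of -0.06 ± 0.25 (SE). Col1a2, the partner chain, read 3780 and 5372 in Pdpn KO, against 3970 and 5517 in WT. In both genotypes the array numbered 2 was the high one for 9 of the 11 collagens, with a median gap of 0.39 in Pdpn KO and 0.42 in WT, where the 9 enzyme and chaperone genes had a median gap of 0.10 in Pdpn KO and 0.12 in WT. The brightest 10% of all genes had a median gap of -0.04 in Pdpn KO and -0.02 in WT. Of 3 measured genes of elastic fibres, another lysyl oxidase substrate and its partners, 0 passed in limma and 0 had an unadjusted p under 0.05. Fbln5, a scaffold of elastin assembly, read 6112 and 5706 in Pdpn KO, against 6467 and 7048 in WT (-0.19 ± 0.12; limma adjusted p = 1.00), and Eln, elastin, read 346 and 345 in Pdpn KO, against 256 and 407 in WT.

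**Figure D4:**
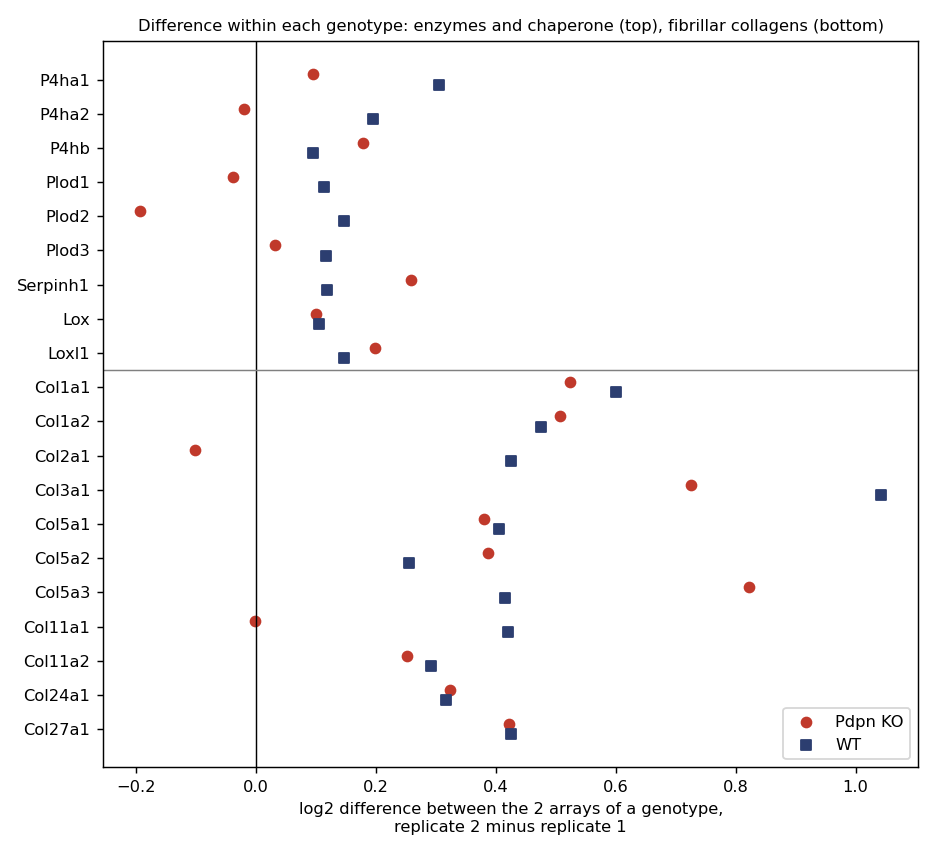
Log2 difference between the arrays of a genotype, replicate 2 minus replicate 1 (horizontal axis), in Pdpn KO (red circles) and WT (blue squares), for the 9 enzyme and chaperone genes above the grey line and 11 fibrillar collagens below it. The collagens have a median of 0.39 in Pdpn KO and 0.42 in WT, and the upper genes 0.10 in Pdpn KO and 0.12 in WT.

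Of 33 other listed genes of collagen processing, secretion and turnover, 31 were measured, and 0 reached an adjusted p of 0.05 in limma. At an unadjusted p under 0.05, 1 was higher and 1 lower in Pdpn KO, where 1.5% of all genes were higher and 0.511% lower. Both knockout arrays lay above both wild-type arrays for 7 of the 31 genes and below them for 5, where 14.6% and 9.74% of all genes did. Tll1, a tolloid-like protease that removes the carboxyl propeptide of procollagen, read 4522 and 4323 in Pdpn KO, against 6255 and 5813 in WT. Both knockout arrays lay below both wild-type arrays, by a log2 difference of -0.45 ± 0.11 (SE, 95% interval -0.72 to -0.17; limma adjusted p = 1.00). Ctsk, cathepsin K, a protease that degrades fibrillar collagen, read 603 and 754 in Pdpn KO, against 552 and 478 in WT (0.39 ± 0.15; limma adjusted p = 1.00).

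Tll1 was also among the 6 brightest genes of that list, and the other 5 did not have an unadjusted p under 0.05. P4ha3, a further prolyl 4-hydroxylase alpha subunit, read 4920 and 4843 in Pdpn KO, against 5110 and 6090 in WT (-0.19 ± 0.13; limma adjusted p = 1.00). Ppib, cyclophilin B, a proline isomerase of the prolyl 3-hydroxylation complex, differed by 0.05 ± 0.11, and Sparc, a collagen-binding matricellular protein, by 0.01 ± 0.12. Pcolce, which enhances propeptide removal, differed by 0.11 ± 0.11, and Sec23a, a coat subunit of the vesicles that carry procollagen, by 0.02 ± 0.12. The median over the 31 genes was 0.02.

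**Figure D5:**
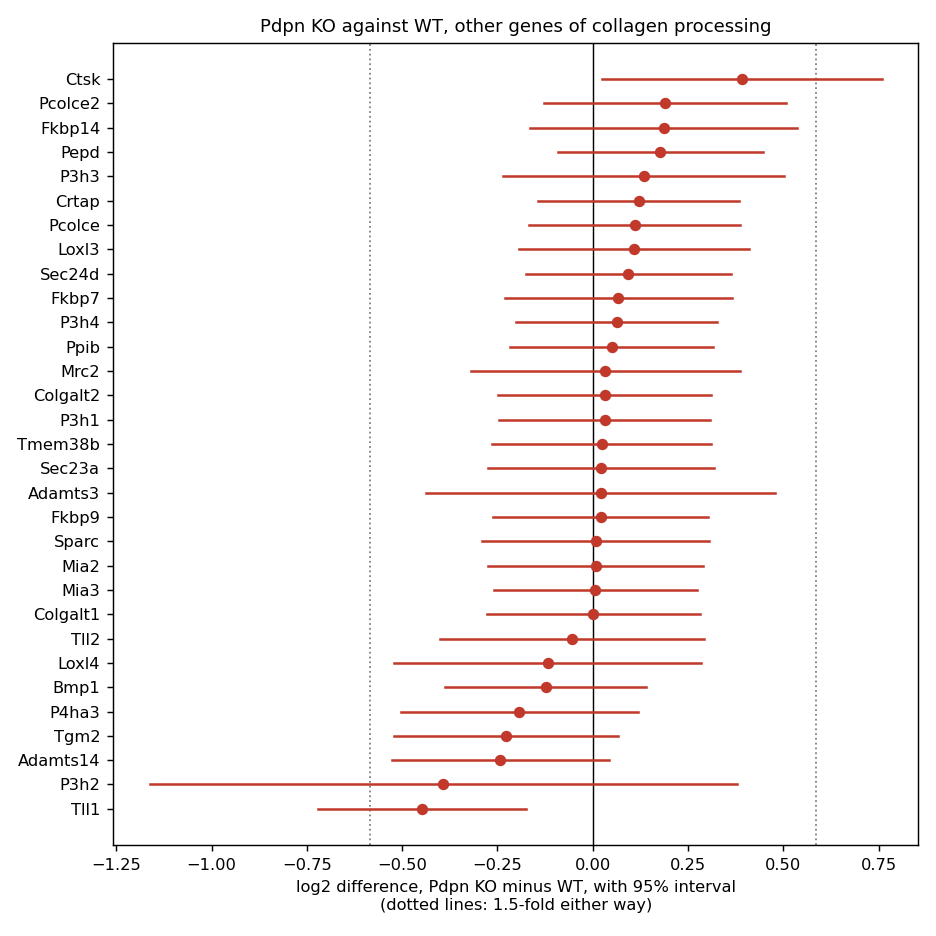
Log2 difference in intensity, Pdpn KO minus WT (horizontal axis), for 31 other genes of collagen processing, secretion and turnover, sorted by value. Points are limma estimates from 2 arrays per genotype and bars are 95% intervals; the intervals of Tll1 (lower) and Ctsk (higher) leave out 0, and neither gene passed an adjusted p of 0.05.

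Genes of the conditions that act on these enzymes did not pass in limma either. Over all genes, 0.0101% passed an adjusted p of 0.05 and 2.01% had an unadjusted p under 0.05 in limma. With shares so low, counts of 0 in short lists do not show that these conditions were alike between genotypes. Of 15 hypoxia-responsive genes, 0 passed an adjusted p of 0.05 and 0 had an unadjusted p under 0.05, with a median log2 difference of 0.04. Ldha, lactate dehydrogenase A, read 12068 and 11557 in Pdpn KO, against 11445 and 11585 in WT, and Ero1a, the oxidase that recharges protein disulphide isomerase, read 2523 and 2335 in Pdpn KO, against 2760 and 2619 in WT (-0.15 ± 0.11; limma adjusted p = 1.00). Of 12 endoplasmic reticulum folding genes, 0 passed an adjusted p of 0.05 and 0 had an unadjusted p under 0.05, with a median of 0.06. Both knockout arrays lay above both wild-type arrays for 6 of the 12 and below them for 3, where 14.6% and 9.74% of all genes did. These shares were above those of all genes, and the reason was not tested. Dnajb9 (0.22 ± 0.11) and Sdf2l1 (0.21 ± 0.11), both co-chaperones of the stress response, had the smallest p of that list (limma adjusted p = 1.00), while Calr, calreticulin, differed by 0.06 ± 0.11.

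Markers of other cells that could add collagen or dilute it did not pass an adjusted p of 0.05 in limma. As only 0.0101% of all genes passed, this does not show which cells were present. In bulk RNA, fewer cells of a type and less RNA per cell cannot be told apart. The summed intensity of 7 blood endothelial markers was 1353 to 1380 in Pdpn KO, against 1497 to 1746 in WT. Emcn, an endothelial sialoglycoprotein in that sum, read 196 and 177 in Pdpn KO, against 459 and 351 in WT (limma adjusted p = 0.570). Signs were mixed, with 4 of the 7 log2 differences negative, 3 positive and a median of -0.04. Only Emcn had both knockout arrays under both wild-type arrays, and only Tek had them above (0.23 ± 0.12). The sum therefore does not show a drop shared by the 7 markers. The sum of 6 measured blood cell markers was 919 to 1207 in Pdpn KO, against 892 to 1094 in WT. That of 6 epithelial markers was 1437 to 1579 in Pdpn KO, against 1589 to 1694 in WT. Their log2 differences were negative for 5 and positive for 1, with a median of -0.08. Both knockout arrays lay below both wild-type arrays for 2 of the 6, where 9.74% of all genes did. Krt18, the brightest of the 6, read 579 and 614 in Pdpn KO, against 673 and 712 in WT. That of 6 muscle markers was 1730 to 1819 in Pdpn KO, against 1672 to 2002 in WT, and that of 5 measured cartilage and bone markers 3439 to 3486 in Pdpn KO, against 3145 to 3483 in WT. Of the 30 genes in these sums, Emcn alone had an unadjusted p under 0.05 in limma, where 2.01% of all genes did. Of 11 fibroblast markers, 1 had such a p, S100a4, a calcium-binding protein, at 0.29 ± 0.11 (limma adjusted p = 1.00). The median log2 difference of the 11 was 0.12, with 7 higher and 4 lower means in Pdpn KO, and -0.05 without Pdpn KO replicate 2. Both knockout arrays lay above both wild-type arrays for 3 and below them for 1, where 14.6% and 9.74% of all genes did. Lum differed most, by 0.67 ± 0.30, at dim readings of 69.1 and 122 in Pdpn KO, against 47.6 and 69.4 in WT. The part of these markers in the values of the collagen-modifying genes was not tested.

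The 2 genes with the widest range over the 4 arrays were Plod2 and Loxl1. By the root mean square difference of centred log2 values over 4 arrays, the genes most like Plod2 were 2410022M11Rik, 2700081O15Rik, Gm10139 and Lrrc4c, at 0.017 to 0.023. Those most like Loxl1 were Apex1, Rbm10, Dnajc21 and Ldoc1, at 0.0043 to 0.011. With 4 arrays and 19751 genes, such closeness is a description of these arrays only.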

How the data were processed

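The authors deposited linear intensity values, 1 per probe set and array. Per the submitters' processing notes these came from RMA, whose version and settings the sources used here do not state. RMA subtracts background, equalises the arrays' quantiles and combines probes on a log scale, so it leaves no detection calls and hides shifts shared by most genes. The median intensity of genes lay between 305 and 317 on the 4 arrays, and the small number of arrays limits precision. For analysis, values were log2-transformed without pseudocount or filter. Of 24679 probe sets, 21354 had 1 gene symbol in the platform annotation, 1275 several, and 2050 were not listed; the brightest per symbol was kept, giving 19751 genes. Chromosome bands are those of the deposited probe set descriptions. Genotypes were compared with limma 3.58.1 under R 4.3.3, using lmFit with genotype as the only term and eBayes, with two-sided p-values adjusted by Benjamini-Hochberg across the 19751 genes. The fit was tested on simulated data with independent errors, which lack the pattern shared by arrays of the same replicate number. The ± is the standard error.

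The genes, lists and tests were chosen with earlier results of these data known. Apart from the 10 genes and Pdpn, genes were named by rule: in the list of other collagen genes, those with an unadjusted p under 0.05 and the 6 brightest, and in each remaining list some of up to 2 with the smallest p and the 2 brightest. Alternatives were other scalings, the second deposited table, filters on dim genes, a pseudocount of 16, another prior, averaged probe sets per gene, a replicate block and each array left out. Figures were drawn with matplotlib 3.10.9.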

Additional observations from a re-analysis of the deposited data

How the results depend on the processing

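Under 13 alternatives, 0 of the 9 enzyme and chaperone genes reached an adjusted p of 0.05 in limma (lowest 0.594), and 1 of 117 values had an unadjusted p under 0.05 (Plod1 with a robust, intensity-dependent prior, 0.0477). The sign was kept in 106 of the 117. It turned for P4ha1 with median centring (-0.024) and quantile normalisation (-0.013) and for Lox with quantile normalisation (0.0026). With 1 array left out, values ran from -0.15 to 0.16 for P4ha1, -0.040 to 0.15 for P4ha2, -0.037 to 0.14 for P4hb, -0.15 to 0.11 for Serpinh1 and -0.076 to 0.029 for Lox, and interval bounds of the 9 genes reached -0.645 and 0.635, so the 1.5-fold limit does not hold in every such fit. Their median ran from -0.040 to 0.15. A lone array is assumed to vary like the other genotype.

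The count over all genes, 2, was 1 without the dimmer 50% of genes, 9 with the robust prior, 34 with the replicate number as a block, 100 and 50 on leaving out Pdpn KO replicate 1 or 2, and 5 and 53 on leaving out WT replicate 1 or 2; the cause was not tested. Across the other lists, sex-linked genes aside, 0 genes passed with all arrays, 1 (Emcn) with the replicate block, and 0 to 4 with 1 array left out: Emcn on leaving out Pdpn KO replicate 2 or WT replicate 2, and Emcn, Lum, Acan and P3h2 (a prolyl 3-hydroxylase, named after its values were seen) on leaving out Pdpn KO replicate 1. Array differences of the same number correlated over genes (r = 0.581), but the labels do not say what a number marks, and with the block 0 of the 9 genes passed (lowest adjusted p 0.594, Plod1).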
